A study of Bos taurus with 9 samples.

Results

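The loci described here are predicted miRNA with an effective region of 25, 26, 28, 29 or 30 bases, found in extracellular vesicles (EVs) of bovine follicular fluid. They were taken by length from the 455 loci that the study listed as miRNA from a predicted hairpin, and 96 of the 455 had one of these lengths. Of the rest, 328 were 27 bases long and 31 were 24 bases or shorter. The deposited table of all small RNA loci held 101889. A locus is a stretch of the UMD3.1 bovine genome covered by mapped reads, and its effective region is the part where the read depth at each base was at least 20% of the highest base. The study listed a locus when it matched no known miRNA, averaged 100 or more counts in 1 or more of the follicle sizes, and lay in the stem of a predicted hairpin with at least 80% pairing. Each of the 96 loci is called a predicted miRNA here, since the hairpin is a prediction from sequence and no test of processing was part of these data.

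EVs were isolated from follicular fluid of cow ovaries. The samples were 3 pools from small follicles (3-5 mm in diameter), 3 from medium follicles (6-9 mm) and 3 from large follicles (>9 mm). Fluid of many follicles was pooled by size on a collection day, so the replicates are pools and not single animals or single follicles, and each of the 3 collections supplied fluid of all sizes. Neither the labels nor the methods say which pools came from the same collection, so pools could not be matched. The samples are named below by size and replicate number (small 1, 2 and 4, medium 5, 6 and 8, large 10, 11 and 12).

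A miRNA is cut from a hairpin transcript by the nucleases Drosha and Dicer, and 1 strand of the resulting short duplex is loaded into an Argonaute protein, where it guides repression of mRNAs that pair with it. In the ovarian follicle, miRNA is made by granulosa, theca and cumulus cells and by the oocyte, and vesicles carry part of it into the fluid. Effective regions of 25 bases and more are longer than the usual mature miRNA.

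Total counts ranged from 8941598 to 14664460 per sample, and the 96 loci held from 40926 to 131613 of them. The floor of 3 counts corresponded to a share of at most 3.36e-05%, and it covers counting error only. No member had a count of 0 in any sample, and the lowest count was 5. The libraries differed in their small RNA content. Known and homologous miRNA held 23.1%, 14.1% and 26.9% of the counts in small 1, 2 and 4. They held 3.88%, 3.75% and 11.2% in medium 5, 6 and 8, and 1.58%, 1.43% and 5.65% in large 10, 11 and 12. Medium 8 and large 12 therefore stood apart from the other pools of their size. Of 6 granulosa and gonad miRNA names 5 were found (miR-202, miR-21, miR-132, miR-224 and miR-378, but not miR-212), and their summed share ran from 0.711% to 1.37% in the small pools, from 0.152% to 0.479% in the medium pools and from 0.0405% to 0.287% in the large pools. Of 6 blood cell names 4 were found (miR-451, miR-486, miR-142 and miR-150, but not miR-144 and miR-223), at 0.0133-0.0327%, 0.00696-0.0171% and 0.0132-0.0750%. The part of these differences in the results below was not tested.

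The 58 loci of 28 bases held most of the counts. They took 71.3% of the 838195 counts on the 96 loci, the 4 loci of 30 bases took 15.3% and the 25 loci of 26 bases took 11.0%. The 5 loci of 29 bases held 2.05% and the 4 loci of 25 bases held 0.374%. Total counts of single loci over the 9 samples ran from 638 to 62718. Within a length, loci of 28 bases ranged from 746 to 14510 with a median of 12620, and those of 26 bases from 638 to 7287 with a median of 3912. The loci of 30 bases were the most uneven, with 2 of the 4 at 62266 and 62718 and the other 2 at 646 and 2396. The study's minimum was reached in all 3 sizes by 74 loci, in medium and large but not in small follicles by 15, and in a single size by 7 (small only for 2, medium only for 2 and large only for 3). A locus that entered the list only through the sizes in which it is high had to differ between sizes. Counts of changed loci, summed shares and ratios of sums that include such loci therefore describe the list and do not support a direction. No test is given below for a named locus whose direction of change was set in this way.

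The summed share of the 96 loci was larger in medium and large than in small follicles. It was 0.403%, 0.479% and 0.402% of all deposited counts in small 1, 2 and 4. It was 1.09%, 0.950% and 0.842% in medium 5, 6 and 8, and 1.34%, 1.21% and 0.934% in large 10, 11 and 12. All 6 medium and large pools lay above the 3 small pools, and medium and large pools overlapped. The means were 0.428% ± 0.0440, 0.961% ± 0.124 and 1.16% ± 0.207 (SD, n = 3 each), which is 2.24-fold higher in medium and 2.71-fold higher in large than in small follicles. The trend over the 3 sizes had p = 0.00357 in a two-sided exact permutation test of the log2 share (1680 arrangements, smallest p possible 0.00119), and 0.00536 after Benjamini-Hochberg adjustment over 6 shares. Between single pairs of sizes, an exact permutation test of 3 against 3 pools cannot go below 0.1. That value was reached for both comparisons with small follicles, and large against medium had an exact permutation p = 0.3. The rise of the whole predicted set was already known when these loci were chosen, so it is no independent evidence of a direction. Over the same samples the share of known and homologous miRNA fell from a mean of 21.4% to 6.28% and 2.89%, and a share is bound to the rest of the library.

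Each length had a higher mean share in medium and large than in small follicles. For 28 bases the share was 0.286%, 0.332% and 0.273% in the small pools, 0.802%, 0.667% and 0.600% in the medium pools, and 0.961%, 0.864% and 0.667% in the large pools. The large mean was 2.80-fold the small mean (exact permutation test of the trend, p = 0.00238, adjusted p = 0.00536). For 26 bases it was 0.0477%, 0.0599% and 0.0611%, then 0.113%, 0.105% and 0.0981%, then 0.129%, 0.121% and 0.105%, or 2.11-fold (exact permutation p = 0.00238, adjusted p = 0.00536). Without the 2 loci of 26 bases described below as lower in large follicles, the means were 0.0392%, 0.0949% and 0.115%, or 2.93-fold. That choice was made after the values were seen and is given with no test. No medium or large pool overlapped with a small pool at either length. The minimum was reached in small follicles by 49 of the 58 loci of 28 bases and 21 of the 25 of 26 bases. Both p-values therefore describe the list and support no direction.

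The rarer lengths had the same order of means. For 30 bases the share was 0.0581%, 0.0734% and 0.0575% in small, 0.150%, 0.152% and 0.126% in medium and 0.220%, 0.193% and 0.141% in large pools, 2.93-fold from small to large (exact permutation p = 0.00357, adjusted p = 0.00536). For 29 bases the group means were 0.0104% ± 0.00151, 0.0196% ± 0.00338 and 0.0220% ± 0.00372 (2.12-fold, exact permutation p = 0.00595, adjusted p = 0.00714). For 25 bases they were 0.00150% ± 0.000306, 0.00372% ± 0.00136 and 0.00428% ± 0.00121 (2.86-fold). None of the 4 loci of 25 bases reached the minimum in small follicles, so they were listed through medium or large follicles only, and the difference is given with no test. Of the longer loci, 3 of 4 of 30 bases and 3 of 5 of 29 bases reached it in small follicles. The p-values of these 2 lengths therefore describe the list and support no direction. Large and medium pools could not be separated at any length, with exact permutation p from 0.2 to 0.5.

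**Figure D1:**
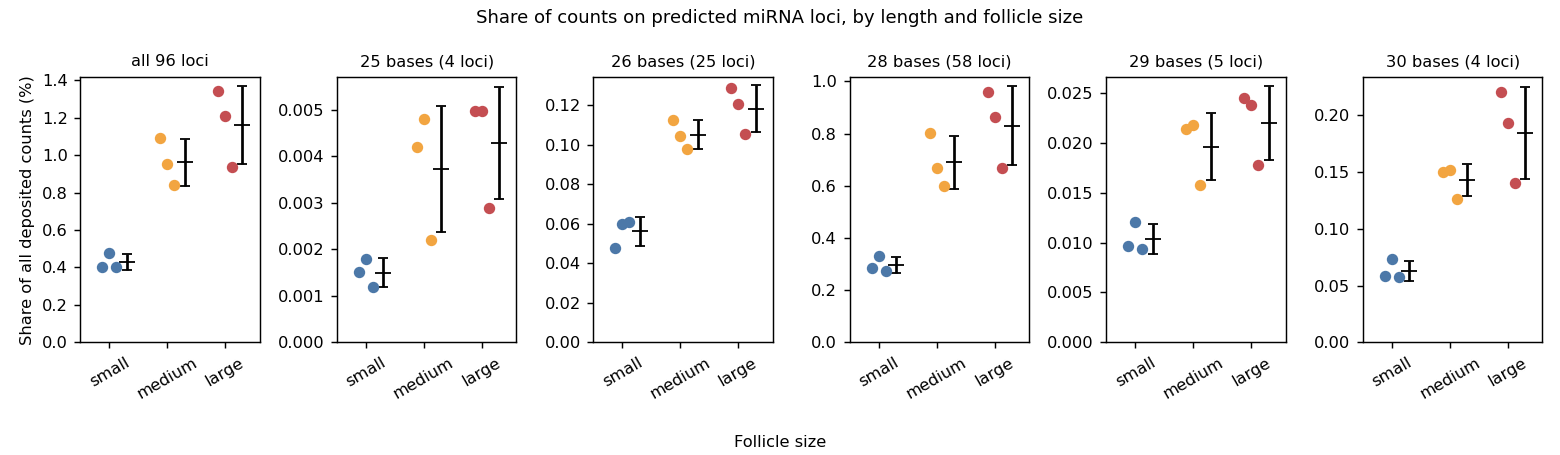
Share of all deposited counts (%) on the 96 predicted loci and on each length, by follicle size. Each coloured point is 1 pool and the black mark is the mean with its SD (n = 3), and every panel starts at 0 with its own scale. In each panel the small pools lie below all medium and large pools, while medium and large overlap.

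Sums within a sample were also set against other loci, since such a ratio does not depend on the known miRNA in the library. The sums include loci that reached the minimum in some of the sizes only. The p-values of the 3 ratios given here and below therefore describe the lists and support no direction. Against the 328 predicted loci of 27 bases, the 96 loci had 2.13, 2.61 and 2.24 times the counts in small, 1.89, 2.23 and 2.48 times in medium and 2.20, 1.48 and 1.54 times in large pools. The mean ratio was 2.33, 2.20 and 1.74, a log2 difference of -0.42 between large and small (exact permutation test of the trend, p = 0.0476, adjusted p = 0.0476 over 3 ratios). This call was fragile: it held in 2 of the 9 fits that left out 1 pool (exact permutation test, adjusted p 0.0241-0.143). It was lost without small 2, small 4, medium 5, medium 6, medium 8, large 11 or large 12, and with medians per locus in place of sums (log2 difference -0.85, adjusted p = 0.075). Large 10 and small 1 overlapped in this ratio.

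Levels of single loci are given as CPM, the count scaled to a fixed sum of deposited counts (1000000) in every sample. The 1788 loci of the same 5 lengths that were in none of the study's miRNA tables, and had the same minimum of counts, had a falling summed share. Their means were 15.1%, 13.1% and 7.39% in small, medium and large follicles, and the ratio of the 96 loci to them rose from 0.0333 to 0.0788 and 0.156 (log2 difference 2.23, exact permutation test of the trend, p = 0.00119, the smallest possible, adjusted p = 0.00357). The ratio did not overlap between small and large pools. Part of this difference lay in a few loci outside the tables. The 10 of them with the highest counts held 9.43%, 5.80% and 0.438% of all counts, and without them the summed share of the other 1778 was 5.69%, 7.31% and 6.95%. From small to large follicles the share of the 96 loci rose from 0.428% to 1.16%, so a difference of sums remained, given with no test. Without the highest-count locus of each side the log2 difference was 2.13 (exact permutation test, adjusted p = 0.00357). The median count per locus gave a log2 difference of 0.07 (exact permutation test, adjusted p = 0.745), from a median of 53.5, 91.4 and 111 CPM over the 96 loci and of 8.82, 16.1 and 17.5 CPM over the 1788.

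The 28-base loci gained on the 26-base loci as sums, from a mean ratio of 5.34 in small to 6.53 in medium and 6.98 in large follicles (log2 difference 0.39, exact permutation test of the trend, p = 0.00952, adjusted p = 0.0143). Without small 4 the adjusted p was 0.0536. This ratio turned on 2 loci of 26 bases, at chr10:26814520-26814545 and chr3:63639301-63639326, which are described below. Without the locus of chromosome 10 the mean ratio was 6.63, 7.17 and 7.08, and without both it was 7.60, 7.34 and 7.18. These choices were made after the values were seen and are given with no test. With medians per locus the log2 difference was -0.07 (exact permutation test, adjusted p = 0.575). Of the member counts, the 28-base loci held 69.4% ± 1.55, 71.6% ± 1.73 and 71.6% ± 0.159 (SD, n = 3) in small, medium and large follicles.

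Single loci were tested on a pair of scales. The first is the share of all counts, as in CPM, fitted over 85601 loci with adequate counts (all 96 among them) with edgeR's quasi-likelihood test and Benjamini-Hochberg adjustment over all of them (false discovery rate, FDR, under 0.05). On this scale 86 of the 96 loci were higher and 4 lower in large than in small follicles, and 6 were not called. Over all loci tested, 59.5% were called higher and 5.02% lower, and the median log2 fold change was 1.49 for the 96 loci against 1.81 for all loci. Samples did not overlap for 89 loci that were higher and 4 that were lower (67.9% and 5.02% of all deposited loci). Among the 74 loci that reached the minimum in all 3 sizes 70 were higher and 2 lower, and among the other 22 there were 16 and 2.

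In medium against small follicles 81 of the 96 loci were higher and 2 lower by the same edgeR test (28.1% and 2.72% of all loci tested), with a median log2 fold change of 1.23 against 1.49 over all loci, and samples did not overlap for 81 higher and 2 lower loci (35.7% and 3.39% of all deposited loci). The number called higher was 0 without small 1, without small 4, without medium 5 and without medium 6, so it depended on each of these pools. The number called lower was 0 when any 1 of the small pools, medium 5 or medium 6 was left out. In large against medium follicles 0 were called in either direction (0.00% and 0.161% of all loci tested), 1 locus had an unadjusted p under 0.05, and DESeq2 called 0. Samples did not overlap for 1 higher and 0 lower loci (6.17% and 2.31% of all deposited loci).

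The number of higher loci also depended on how the libraries were scaled. With TMM factors over all loci, which centre the fold changes on the bulk of the loci, the median of all loci for large against small moved from 1.81 to 0.09. The median of the 96 moved from 1.49 to -0.25, with 84 of 96 below 0, and 0 were called higher and 3 lower. For medium against small follicles the median of the 96 moved from 1.23 to -0.07 and 0 were called higher. With the size factors of DESeq2 and with DESeq2 itself 0 were likewise called higher in both comparisons.

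The second scale is relative to the 455 predicted loci, which were scaled with TMM and fitted on their own. Here 0 of the 96 loci were called higher and 4 lower in large than in small follicles (0.00% and 5.27% of the 455), and 16 had an unadjusted p under 0.05. The exact test of edgeR, the kind named in the study's methods, called 0 higher and 6 lower. The study itself listed these 6 as lower in large follicles, and also the loci at chr14:4412105 and chr4:46639567. The median log2 fold change was -0.33 for the 96 loci and 0.01 for the 455, and samples did not overlap for 1 locus that was higher and 17 that were lower (7.47% and 11.9% of the 455). In medium against small follicles 0 were called by edgeR's quasi-likelihood test in either direction (0.00% higher and 2.20% lower over the 455, with 4 of the 96 at an unadjusted p under 0.05), where edgeR's exact test called 3 and DESeq2 2 lower, and samples did not overlap for 0 higher and 4 lower loci (3.74% and 8.79%). In large against medium follicles 0 were called (0.00% and 1.32% of the 455, with 8 of the 96 at an unadjusted p under 0.05), and 0 by edgeR's exact test and by DESeq2, and samples did not overlap for 0 higher and 10 lower loci (7.47% and 6.37%). Without large 10 the number lower was 51 against small and 45 against medium follicles, and without large 11 it was 0 against small follicles.

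**Figure D2:**
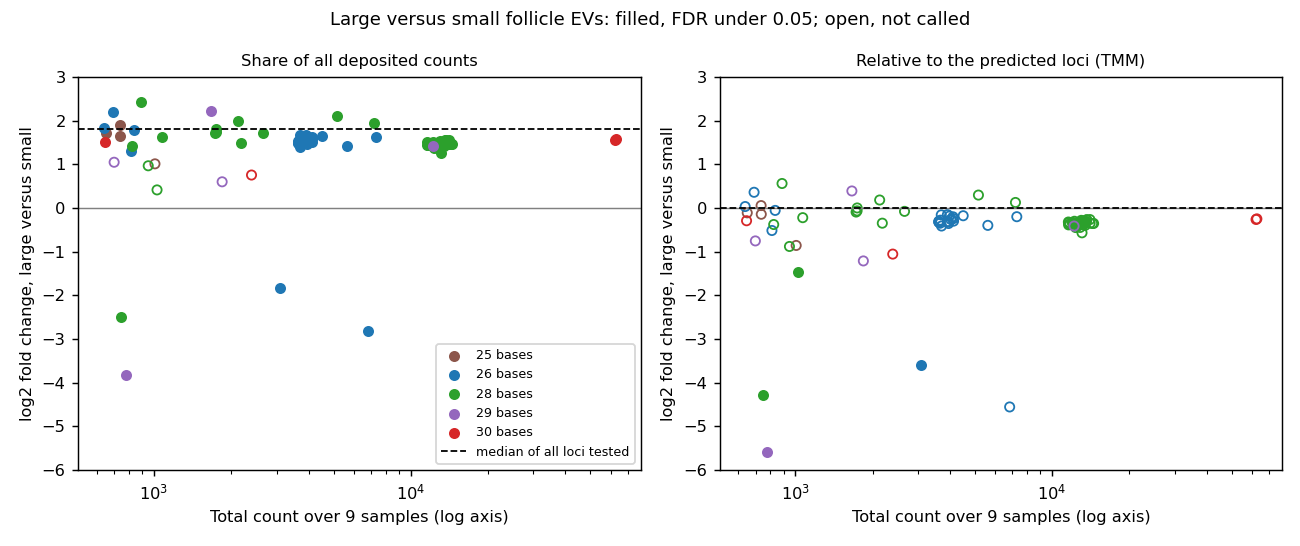
Log2 fold change of large over small follicles (vertical axis) against the total count over 9 samples (horizontal, log axis) for each of the 96 loci, coloured by length. On the left the values are shares of all deposited counts and on the right they are relative to the 455 predicted loci, filled points have an FDR under 0.05, and the dashed line is the median of all loci tested, at 1.81 and 0.01. On the left most points lie just under the dashed line and on the right most lie just under 0, and TMM over all loci moves the left median to 0.09. A few loci lie far below on both sides.

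A small group of loci was lower in large than in small follicles on both scales. The locus of 29 bases at chr28:25631928-25631956 (plus strand) had 15.9, 27.2 and 15.3 CPM in the small pools, 0.414, 0.599 and 8.08 CPM in the medium pools and 0.513, 0.880 and 2.65 CPM in the large pools. All small pools were above all others, and medium 8 and large 12 were the highest of their sizes. Its log2 fold change of large over small was -3.82 ± 0.88 (SE) on the share scale and -5.58 ± 1.12 within the predicted set, and in medium against small it was -2.69 ± 0.83 on the share scale. It reached the minimum of the study in small follicles only, so these values are given with no test. They rest on few counts, with 5 and 7 in medium 5 and 6 and 5 and 9 in large 10 and 11.

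The locus of 26 bases at chr3:63639301-63639326 (minus strand) had 46.1, 79.7 and 49.4 CPM in small, 8.28, 16.0 and 35.3 CPM in medium and 12.0, 10.4 and 26.8 CPM in large pools. Small pools did not overlap with the others, and medium 8 and large 12 were again the highest of their sizes. The log2 fold change of large over small was -1.83 ± 0.50 on the share scale (edgeR, FDR 0.00935) and -3.59 ± 0.67 within the set (FDR 0.00848), the latter lost without large 11 (FDR 0.0604).

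The locus of 28 bases at chr9:103492721-103492748 (minus strand) had 7.64, 30.9 and 8.45 CPM in small, 3.40, 9.07 and 3.85 CPM in medium and 6.06, 1.66 and 0.684 CPM in large pools. Small and large pools did not overlap, and small 2 was far above the other small pools. Its log2 fold change was -2.48 ± 0.73 on the share scale and -4.28 ± 0.73 within the set. It too reached the minimum in small follicles only, and is given with no test. Its count in large 12 was 8. The loci of chromosomes 3, 9 and 28 are among the loci counted as lower on both scales and also with TMM over all loci, and of these only that of chromosome 3 reached the minimum in all 3 sizes.

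The locus of 26 bases at chr10:26814520-26814545 (plus strand) differed widely between pools of 1 size. It had 62.3, 60.1 and 211 CPM in small, 19.6, 19.0 and 209.7 CPM in medium and 2.05, 2.74 and 42.5 CPM in large pools. In each size, the highest value was in the pool with the highest share of known miRNA and of granulosa and gonad miRNA (small 4, medium 8 and large 12), and the part of that content in the differences between sizes was not tested. Large and small pools did not overlap (log2 fold change -2.81 ± 0.97 on the share scale, edgeR, FDR 0.0222), and the call was lost without small 4 (FDR 0.0901), large 10 (FDR 0.0507) or large 11 (FDR 0.0684) and with TMM over all loci (FDR 0.155). Within the set its FDR was 0.137.

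The fourth locus called lower within the set lay at chr12:89782137-89782164 (28 bases, plus strand) and is named after its values were seen. It had 8.93, 9.62 and 4.82 CPM in small and 14.9, 9.77 and 6.59 CPM in large pools, which overlap. Its log2 fold change of large over small was -1.45 within the set and 0.42 on the share scale, so its direction depended on the scale. It reached the minimum in medium and large but not in small follicles, so these values are given with no test.

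**Figure D3:**
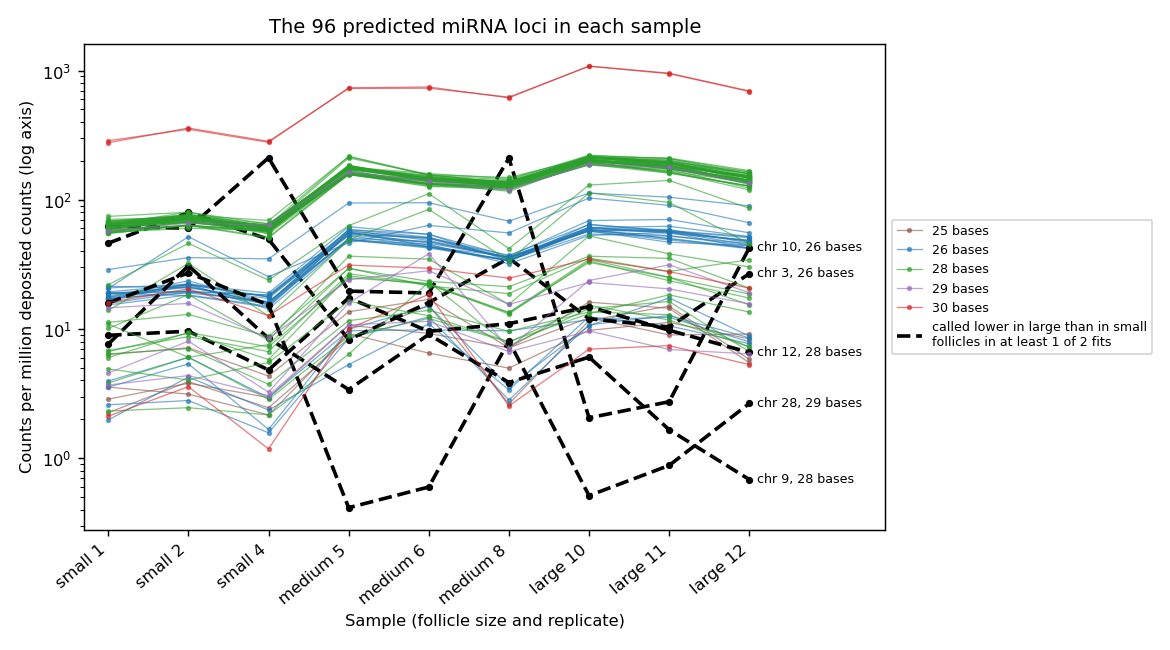
CPM (vertical, log axis) of the 96 predicted loci in each of the 9 pools (horizontal axis), with each line joining the values of 1 locus and colours marking the length. Black dashed lines are the 5 loci called lower in large than in small follicles in at least 1 of the 2 fits. The pair of 30-base loci is uppermost, from 276 to 1082 CPM, most loci of 28 bases form a dense band below it, and the dashed lines of chromosomes 3, 9, 10 and 28 are lower in every large than in every small pool on this scale.

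The loci with the largest rise on the share scale were all of low count, and none of those with the 3 highest fold changes reached the minimum in small follicles, so their values are given with no test. The locus of 28 bases at chr4:79636298-79636325 (plus strand) had 2.32, 2.46 and 2.16 CPM in small, 6.38, 23.0 and 7.42 CPM in medium and 14.4, 16.3 and 6.67 CPM in large pools. Small pools did not overlap with the rest (log2 fold change of large over small 2.42 ± 0.57). The locus of 29 bases at chr16:10539613-10539641 (minus strand) had 4.57, 8.05 and 3.24 CPM in small, 15.9, 38.3 and 7.05 CPM in medium and 23.7, 31.4 and 19.1 CPM in large pools (log2 fold change 2.23 ± 0.56). Its medium 8 value lay within the small pools. The locus of 26 bases at chr12:37986383-37986408 (minus strand) had 2.59, 2.80 and 1.57 CPM in small, 8.45, 12.4 and 2.82 CPM in medium and 10.8, 12.7 and 8.55 CPM in large pools (log2 fold change 2.20 ± 0.56). With TMM over all loci the 3 values were 0.62, 0.53 and 0.47.

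Medium over small follicles added 1 locus to these, which reached the minimum in all 3 sizes. The locus of 28 bases at chr8:7220841-7220868 (plus strand) had 13.9, 32.2 and 12.6 CPM in small, 49.1, 84.1 and 33.8 CPM in medium and 113, 95.3 and 45.8 CPM in large pools, with a log2 fold change of 1.51 ± 0.44 for medium over small (edgeR, FDR 0.0298) and of 2.11 ± 0.45 for large over small (edgeR, FDR 0.00272). Every medium and large pool was above every small pool. Over all loci tested, the median on the share scale was 1.49 for medium over small and 1.81 for large over small. Within the predicted set the locus had 0.30 ± 0.43 for medium over small (edgeR, FDR 0.996). For large over small it had 0.30 ± 0.43 there (edgeR, FDR 0.807), so no direction relative to the other predicted loci was found.

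The 30-base loci were led by a pair on the minus strand of chromosome 6. The locus at chr6:89208037-89208066 had 276, 359 and 283 CPM in small, 726, 729.6 and 622 CPM in medium and 1079, 945 and 688 CPM in large pools. The locus at chr6:89217312-89217341 had 286, 351 and 278 CPM, 735, 746 and 614 CPM, and 1082, 954 and 695 CPM. The totals of the pair over the 9 samples differed by a factor of 1.01, and small pools did not overlap with the others. On the share scale the log2 fold change of large over small was 1.56 ± 0.23 and 1.58 ± 0.23 (edgeR, FDR 0.000382 and 0.000381), while within the predicted set it was -0.26 ± 0.28 and -0.25 ± 0.28 (FDR 0.725 and 0.729) and with TMM over all loci -0.18 and -0.17, so that no direction relative to other loci was found. Between the pair lay loci of 28 bases at chr6:89213610 and chr6:89214662 on the same strand, with 57.3-205 and 56.9-194 CPM over the 9 pools, which belong to the group of 11 loci described below.

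The other 2 loci of 30 bases were lower in count. At chr14:4412105-4412134 (plus strand) CPM were 16.0, 20.5 and 12.7 in small, 31.2, 29.5 and 24.7 in medium and 34.7, 27.8 and 20.7 in large pools. That is a log2 fold change of 0.76 ± 0.38 for large over small (edgeR, FDR 0.0818), and the small and large pools did not overlap. Within the predicted set the direction turned, with -1.05 ± 0.29 and again no overlap (edgeR quasi-likelihood, FDR 0.0768), and there DESeq2 called it lower. At chr4:110692086-110692115 (minus strand) CPM were 2.11, 3.58 and 1.18, then 10.0, 18.6 and 2.54, then 6.98, 7.43 and 5.30 (log2 fold change 1.52 ± 0.63 on the share scale, with no test, since it reached the minimum in medium follicles only). Its medium 8 value lay within the small pools.

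Among the 29-base loci, chr22:2883032-2883060 (plus strand) had most of the counts, with 57.6, 65.8 and 63.8 CPM in small, 163, 139 and 120.0 CPM in medium and 189, 178 and 134 CPM in large pools (log2 fold change of large over small 1.42 ± 0.28, edgeR, FDR 0.00151). That value is on the share scale, where the median over all loci tested was 1.81. Within the predicted set this locus had -0.41 ± 0.17 (edgeR, FDR 0.362). The loci at chr4:46639567-46639595 (minus strand) and chr16:75664624-75664652 (plus strand) were not called on the share scale, with log2 fold changes of large over small of 0.60 ± 0.42 (edgeR, FDR 0.189) and 1.05 ± 0.47, the latter with no test since it reached the minimum in medium follicles only. Within the predicted set both turned, to -1.21 ± 0.35 and -0.75 ± 0.33 (edgeR, FDR 0.0943 for the first), and small and large pools did not overlap for either. DESeq2 called the locus of chromosome 4 lower in large follicles in both fits. Their levels were 8.45-28.2 CPM and 3.05-11.5 CPM over the 9 pools.

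The 4 loci of 25 bases had at most 16.9 CPM in any pool. Those at chrX:83176078-83176102, chr26:44605913-44605937 and chr2:162417-162441 had log2 fold changes of large over small of 1.73, 1.91 and 1.66 on the share scale. The locus at chr5:38615214-38615238 had 6.34, 7.16 and 4.33 CPM in small and 16.1, 14.5 and 5.47 CPM in large pools, which overlap (log2 fold change 1.01 ± 0.51). Within the predicted set the 4 values lay between -0.85 and 0.06. All 4 were listed through medium or large follicles only, so these values are given with no test.

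At the ends of the count range, the 26-base loci with the highest totals were chr7:71938674-71938699 (plus strand, 28.8-35.7 CPM in small, 68.2-94.8 in medium and 89.7-113 in large pools) and the locus on chromosome 10 given above. The lowest were chr4:110272076-110272101 (1.98-4.25, 3.38-11.0 and 7.70-12.4 CPM) and the locus at chr12:37986383. Of the 28-base loci the highest were chrX:19180540-19180567 (68.4-76.0, 142-215 and 164-221 CPM) and chr6:17983291-17983318 (63.4-72.8, 149-217 and 159-212 CPM). The lowest were the falling locus at chr9:103492721 and chr8:86268783-86268810 (2.85-6.04, 7.89-12.1 and 7.27-15.3 CPM). For all 4 of the named loci on chromosomes 7, 4, X and 6, and for that on chromosome 8, the log2 fold change of large over small on the share scale was between 1.43 and 1.84. The median over all loci tested was 1.81. The loci at chr8:86268783 (1.43) and chr4:110272076 (1.84) did not reach the minimum in small follicles, so their rises describe the list.

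Many of the 96 loci had nearly the same count in every sample. A locus joined a group when its 9 counts did not depart from those of the group in a chi-square test (p above 0.001) and its length was within 1 base. By this measure 75 of the 96 fell into 12 groups of 2 to 24 loci, and 21 stood alone. Members of a group may share reads, and the methods do not say how reads that fit several places were assigned, so the loci of a group are not independent measurements and the count of each is uncertain. Whether they share a sequence was not analysed here.

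The largest group held 24 loci of 28 bases on 14 chromosomes, 11 on the plus and 13 on the minus strand. Its first locus was at chr19:57865576, the totals ran from 12856 to 14040, and the group held 37.9% of all member counts. The mean level per locus was 63.5, 72.3 and 60.5 CPM in small, 178, 146 and 134 CPM in medium and 211, 192 and 150.1 CPM in large pools. The group also matched 24 deposited loci outside the miRNA tables, 21 of them of a length that occurs in the group.

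The next group in size held 11 loci on 10 chromosomes, 10 of 28 bases and the 29-base locus of chromosome 22, and began with chr4:66549128. Its totals ran from 12004 to 13075, and 45 loci outside the tables were like it. Its mean level was 60.9, 68.8 and 59.2 CPM in small, 163, 135 and 127 CPM in medium and 198, 177 and 136 CPM in large pools. A group of 5 loci on 5 chromosomes (first locus chr8:24888328, totals 11573-11745) lay entirely on the plus strand and had 1 like locus of 27 bases among the predicted ones, where the other groups in this count range had 0. Groups of 3 loci (first locus chrX:19180540, totals 14065-14510) and of 2 loci (first locus chr15:26578131, totals 12590 and 12650) completed it.

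The 26-base loci formed 2 main groups. One held 10 loci on 7 chromosomes (first locus chr28:11066079, totals 3912-4506), with a mean of 19.0 CPM ± 2.02 in the small, 47.3 ± 11.0 in the medium and 56.6 ± 6.46 in the large pools (SD, n = 3), and 42 like loci outside the tables. The other held 7 loci on 7 chromosomes (first locus chr8:56798061, totals 3622-3711), with 17.6 ± 2.39, 43.0 ± 8.34 and 50.3 ± 6.76 CPM, and 70 like loci outside the tables. In both, all small pools were below all medium and large pools. The remaining groups were the 30-base pair, 3 loci of 28 bases from chr5:97149770 (totals 1725-1742), 2 loci of 28 bases from chr9:72616256 (totals 824 and 949), and 2 groups of 3 loci of 25 or 26 bases, from chr17:66044668 (totals 691-835) and chr13:40034414 (totals 650-811). From small to large follicles the mean CPM of the 12 groups rose between 2.28-fold and 3.87-fold on the share scale, with 11 of the 12 at 2.71-fold or more and the pair from chr9:72616256 lowest. No locus of the groups from chr5:97149770, chr9:72616256, chr17:66044668 and chr13:40034414 reached the minimum in small follicles. Their folds (3.39, 2.28, 3.87 and 2.92) therefore describe the list and support no direction. The other groups lay between 2.71-fold and 2.98-fold. These folds are of shares, and TMM over all loci moves them as given above for single loci.

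Grouping by the shape of the profile alone, with the level left free, was chosen after the data were seen. It placed 79 loci in 7 groups. The largest held 40 loci, 39 of 28 bases and 1 of 29, with totals from 2182 to 14510, and the next held 21 loci, 19 of 26 bases and 2 of 25, with totals from 650 to 7287. The limit of 1 base on the difference in length was kept, so that loci of 26 and 28 bases could not be joined.

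**Figure D4:**
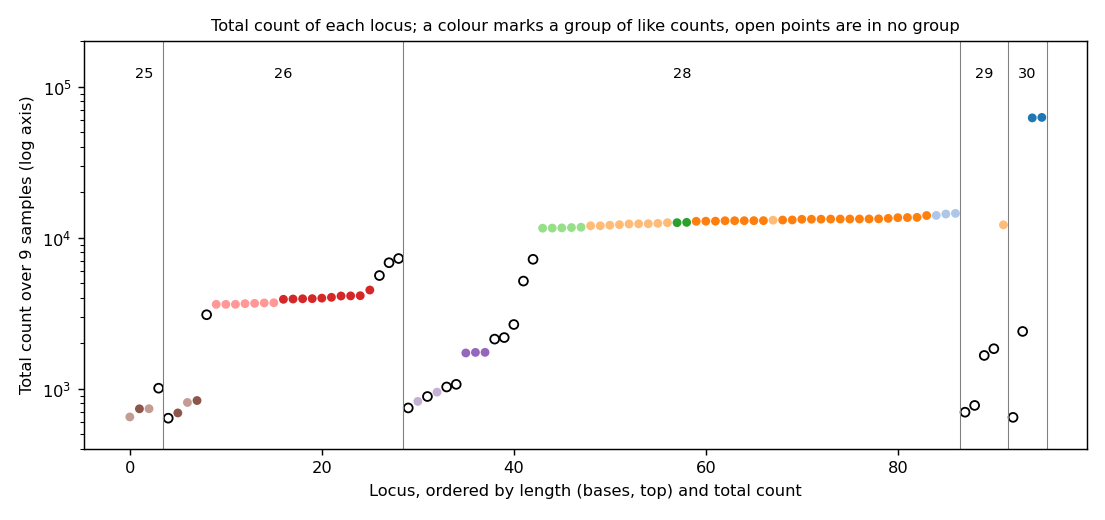
Total count over the 9 samples (vertical, log axis) of each of the 96 loci, ordered by length (25, 26, 28, 29 and 30 bases, between the grey lines) and then by total count. A colour marks one of the 12 groups of like counts and open points are the 21 loci in no group. The 28-base loci form a plateau between 11573 and 14510, the 26-base loci a plateau between 3622 and 4506, and the 30-base pair lies alone at 62266 and 62718.

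The 96 loci lay on 26 of the 31 chromosomes in the table, 56 on the plus and 40 on the minus strand. Chromosome 25 had 9 of them, chromosomes 4, 6 and 8 had 8 each and chromosome 9 had 7. By counts chromosome 6 led with 21.8% of the member counts, most of it from the 30-base pair, and chromosome 25 followed with 11.9%. The members on chromosome 25 held 0.0496% ± 0.00540, 0.116% ± 0.0176 and 0.139% ± 0.0225 of all counts in small, medium and large follicles (SD, n = 3), and those on chromosome 6 held 0.0894% ± 0.0108, 0.207% ± 0.0224 and 0.261% ± 0.0535.

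Of the 96 loci 40 lay within 100 kb of another, in 15 runs, and 21 within 10 kb. Most runs (9 of 15) were pairs, 9 runs had their loci on 1 strand, and 6 runs mixed lengths. The longest run held 6 loci on the plus strand of chromosome 25, between positions 30288476 and 30364007, with 5 loci of 28 bases from the group of 24 and 1 of 26 bases from the group of 10. The run on chromosome 6 with the 30-base pair spanned 9305 bases and held 149209 counts. Loci of 27 bases from the predicted set lay within 10 kb of 34 of the 96.

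Deposited loci recurred at set distances from the members on the same strand. The windows below were chosen after the distances were seen, so the shares are a description with no test. A deposited locus on the same strand lay 650-750 bases away from 63 of the 96 loci (65.6%) and 1350-1450 bases away from 49 (51.0%). For the 58 loci of 28 bases the numbers were 45 (77.6%) and 33 (56.9%), and for the 25 of 26 bases 15 (60.0%) and 13 (52.0%). Among the predicted loci of 27 bases the shares were 92.7% and 62.8%, among known and homologous miRNA 7.63% and 2.01%, and among the 1788 loci of the same lengths 27.8% and 23.0%. Among all other deposited loci they were 7.44% and 6.93%. Of the 31 predicted loci of 24 bases or less, 12.9% had such a neighbour at either distance.

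The most frequent single distances from the 28-base loci were 604 and 693 bases, each seen 9 times, followed by 694 bases, 8 times, and 753 bases, 7 times. From the 26-base loci 606 bases was seen 4 times and no other distance more than 2 times. In the bin of 50 bases that starts 700 bases on the 5′ side, 34 of the 58 loci of 28 bases had a neighbour.

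**Figure D5:**
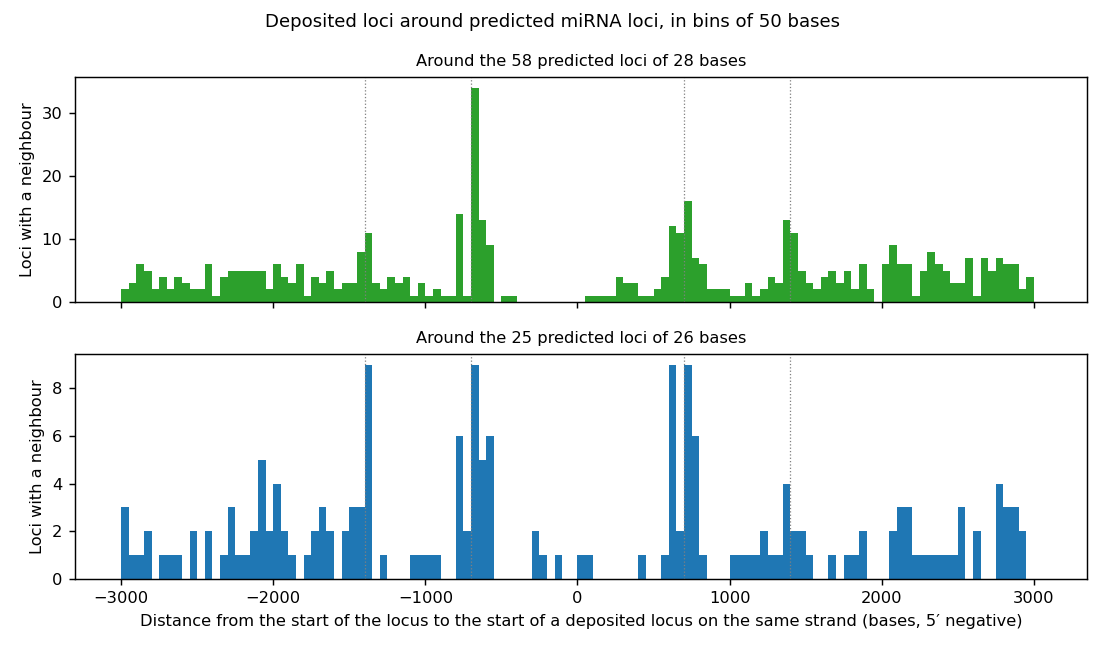
Number of the 58 predicted loci of 28 bases (upper panel) and of the 25 of 26 bases (lower panel) that have a deposited locus on the same strand at each distance (horizontal axis, bases between the starts, negative on the 5′ side, bins of 50 bases up to 3000 bases). Dotted lines mark 700 and 1400 bases on each side. The tallest bar of the upper panel, 34 loci, lies beside the dotted line on the 5′ side, and the lower panel has bars of 9 loci near both distances.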

How the data were processed

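Small RNA libraries of 9 EV samples were compared, 3 for each follicle size given by the labels. The authors removed adapters, mapped reads with BWA 0.7.5a to UMD3.1 (tools and build as listed in the submitters' processing notes), merged the mapped reads of all samples into loci with an average of at least 45 reads per base, and deposited raw read counts on each effective region, not normalized. The handling of reads that fit several places is not given in the sources used here. From the supplementary list of predicted miRNA only locus identity was taken, and all values are from the deposited counts. The members and lists were chosen with earlier results of these data known.

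Shares are percent of all deposited counts, computed here from the deposited counts. Counts were fitted in R 4.3.3 with edgeR 4.0.16 (quasi-likelihood test, 1 fit of 3 sizes, Benjamini-Hochberg adjustment), once for the 455 predicted loci with TMM and once for the 85601 loci kept by filterByExpr with the total count as library size. DESeq2 1.42.0, edgeR's exact test, other scalings, filters, denominators and leaving out each pool were alternatives. Shares and ratios were tested with two-sided exact permutation tests in Python 3.11.15. P-values of shares, ratios and fits measure the spread between pools. The chi-square p used for grouping sets differences between loci against counting error only. Only the quasi-likelihood test was tried on simulated data, with TMM and with loci drawn independently. That does not cover loci that share reads, the permutation tests or the grouping. Total counts of 8941598 to 14664460 per sample put the floor of 3 counts at or under 3.36e-05%.

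Loci are named by a rule: all of 25, 29 and 30 bases, the 2 highest and 2 lowest totals of 26 and 28 bases, up to 3 rising and 3 falling loci per fit and comparison among those called without overlap, and the first locus of each group of like counts. Exceptions are marked in the text, and the neighbours of the 30-base pair are named for their position. Sequences, gene annotation and collection days were not analysed here.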

Additional observations from a re-analysis of the deposited data

How the results depend on the processing

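The 96 loci rose in share under each denominator, on the linear scale and with any 1 pool left out. The log2 difference of large over small without 1 pool was 1.32 to 1.57 for all loci, 1.37 to 1.73 for 25 (given with no test), 0.97 to 1.15 for 26, 1.37 to 1.62 for 28, 1.00 to 1.22 for 29 and 1.41 to 1.72 for 30 bases. With medians per locus the log2 differences of the ratios to 27-base loci, to same-length loci and of 28 to 26 bases were -0.85, 0.065 and -0.067. Without 1 pool the ratios to 27-base loci and of 28 to 26 bases ranged from -0.63 to -0.31 and from 0.27 to 0.48.

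Calls on single loci depended on the scaling, and the alternatives' own construction shows it, since TMM over all loci and both uses of DESeq2 centre the bulk of loci on 0. On the share scale, TMM, DESeq2 size factors and DESeq2 each took the number higher from 86 to 0 (large against small) and from 81 to 0 (medium against small), and TMM and DESeq2 size factors took the number lower in medium follicles from 2 to 0. Within the predicted set, the total count of all loci gave 88 higher in large against small, 89 in medium against small and 1 higher and 1 lower in large against medium. The total of the set without TMM gave 39 higher, and summing loci of like counts gave 4 (large against small) and 2 (medium against small) higher. The number lower in medium against small was 0 and became 3 with edgeR's exact test, 2 with DESeq2, 2 with the set total, 3 with the total of all loci, 4 with TMM over all loci, 1 with summed loci and 2 at an FDR under 0.1. TMM over all loci gave 3 lower in large against medium.

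Without 1 pool, the number higher on the share scale was 78 to 90 in large and 0 to 90 in medium against small. The number lower was 2 to 4 in large against small (2 without large 11), 0 to 3 in medium against small and 0 to 1 in large against medium. Within the set the number lower was 0 to 51, 0 to 2 and 0 to 45. The direction of the 30-base pair turned within the set to 0.38 and 0.39 with the set total and to 1.56 and 1.58 with the total of all loci, and on the share scale to -0.18 and -0.17 with TMM, -0.21 and -0.20 with DESeq2 size factors and -0.21 and -0.20 with DESeq2. The locus at chr8:7220841 ranged from -0.12 to 0.80 within the set without 1 pool (-0.12 without large 10). Within 10 kb in place of 100 kb, 21 in place of 40 loci had another near. In the other 111 combinations of a main result and a setting, the tests kept their direction and their side of the threshold and the counts stayed near their reported values. No paired analysis was possible because, although each collection supplied all 3 sizes, the labels do not tie pools to collections and the groups share no replicate number. Counts under 10 in a pool were found for 2 loci, those at chr28:25631928 and chr9:103492721.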
